A study of Mus musculus with 27 samples.

Results

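The genes described here are 9 genes that mark cholinergic neurons and the motor neurons of the cranial nerves in the fetal mouse brain. They are Chat, Slc18a3, Slc5a7, Ache, Isl1, Phox2a, Mnx1, Chrna3 and Prph. They were taken by symbol from the table of read counts per gene, and all 9 were found among its 55416 genes. RNA of the whole brain of female fetuses was sequenced in 27 libraries, 3 for each of 3 strains on gestational days 12, 15 and 17 (d12, d15 and d17), with the day of the vaginal plug counted as day 1. AKR/J is a short-lived inbred strain prone to leukemia, and C57BL/6J is a long-lived inbred strain. B6.Cg-Cav1tm1Mls/J, called Cav1-null here, is a short-lived strain congenic to C57BL/6J that lacks caveolin-1, a scaffold protein of membrane caveolae. Changes were compared over the early phase (d12 to d15) and the late phase (d15 to d17), and C57BL/6J was the reference between strains.

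A cholinergic neuron makes acetylcholine with choline acetyltransferase (Chat), loads it into vesicles with the vesicular transporter VAChT (Slc18a3), takes choline back up with the high-affinity choline transporter (Slc5a7), and depends on acetylcholinesterase (Ache) to end the signal. In the brain these neurons include the motor neurons of the brainstem, the basal forebrain and striatal cholinergic neurons and the medial habenula. Isl1 is a LIM homeodomain factor of motor neurons that also acts in striatal, hypothalamic and sensory neurons, Phox2a is needed for the oculomotor and trochlear nuclei and for noradrenergic neurons, and Mnx1 (Hb9) marks spinal and abducens motor neurons. Chrna3 is a nicotinic receptor subunit of autonomic ganglia and the medial habenula, and Prph (peripherin) is an intermediate filament of neurons that send axons out of the central nervous system, both motor and sensory.

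Depth ran from 26363697 to 39759702 gene reads a library, and the median library had 29700746. Levels are given in CPM, the counts of a gene scaled to a common library size by the TMM method over all 27 libraries. Cav1 stood at 0 to 0.509 CPM in the 9 Cav1-null libraries and at 9.24 to 39.9 CPM in the other 18, as their labels say. Summed over 12 pan-neuronal markers such as Tubb3 and Snap25, the AKR/J d12 libraries held 2329 to 2927 CPM and the other libraries 4322 to 9875 CPM. The AKR/J d12 libraries were also high in erythroid markers, with sums of 33240 to 197900 CPM against 570.1 to 18620 CPM elsewhere. In AKR/J d12 replicate 1, 10 trophoblast and yolk sac markers summed to 2126 CPM, against at most 623.1 CPM in any other library. Of these markers Prl8a2, Prl2c2 and Tpbpa reached 0.338 CPM by library size in all 3 AKR/J d12 libraries and in 0 of AKR/J d15. Their part in the AKR/J values was not tested. In 5 further libraries skeletal muscle or levels of the nerve axis stood out. Skeletal muscle markers summed to 109.2 CPM in AKR/J d15 replicate 2, 68.73 CPM in C57BL/6J d15 replicate 1 and 37.96 CPM in Cav1-null d12 replicate 3, while no other library exceeded 26.21 CPM. Hox markers of the hindbrain and spinal cord summed to 179.4 CPM in AKR/J d15 replicate 3 and 213.0 CPM in C57BL/6J d15 replicate 3, and to at most 97.1 CPM in the others. Where a call or a count rests on these 5 libraries, it is also given without them. The labels do not tie libraries to litters, so p-values measure the spread between these libraries, and in RNA of a whole brain fewer cells of a type and less RNA per cell cannot be told apart.

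On GRCm39 Slc5a7 is at chr17:54580020-54606076 and Isl1 at chr13:116434817-116446235, both on the minus strand, as are Mnx1 at chr5:29678032-29683636 and Chrna3 at chr9:54917395-54933941. Ache at chr5:137285781-137292728, Phox2a at chr7:101467514-101471933 and Prph at chr15:98952872-98956862 are on the plus strand. The Slc18a3 gene lies inside the Chat gene. Chat runs on the minus strand of chromosome 14 from 32129369 to 32187946, and its first intron covers 32182871 to 32187763. The single exon of Slc18a3, at 32184395 to 32186807 on the same strand, fills 2413 bases of that intron and shares 0 bases with any Chat exon. The promoter windows of this pair and of Prph are shown because the results below turn on these 3 genes, 300 bases each, from 250 before to 50 after the RefSeq start on GRCm38.p6. Capitals mark 3 motifs on either strand: the TATA box letters TATAAA, the CAAT box letters CCAAT, and the GC box letters GGGCGG. The windows are at chr14:32465860-32466159 (Chat, minus strand), chr14:32464801-32465100 (Slc18a3, minus strand) and chr15:99054924-99055223 (Prph, plus strand).
Chat: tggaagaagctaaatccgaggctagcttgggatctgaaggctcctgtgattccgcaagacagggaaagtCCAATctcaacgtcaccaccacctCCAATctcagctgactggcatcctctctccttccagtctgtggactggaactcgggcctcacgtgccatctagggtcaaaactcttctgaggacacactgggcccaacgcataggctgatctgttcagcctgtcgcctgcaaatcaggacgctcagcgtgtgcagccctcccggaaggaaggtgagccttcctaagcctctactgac
Slc18a3: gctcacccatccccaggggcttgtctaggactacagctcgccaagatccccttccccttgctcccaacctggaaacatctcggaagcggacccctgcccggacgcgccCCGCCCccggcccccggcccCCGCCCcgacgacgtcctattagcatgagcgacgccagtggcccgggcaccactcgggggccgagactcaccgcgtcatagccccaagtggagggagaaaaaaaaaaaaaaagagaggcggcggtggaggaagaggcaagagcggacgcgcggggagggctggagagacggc
Prph: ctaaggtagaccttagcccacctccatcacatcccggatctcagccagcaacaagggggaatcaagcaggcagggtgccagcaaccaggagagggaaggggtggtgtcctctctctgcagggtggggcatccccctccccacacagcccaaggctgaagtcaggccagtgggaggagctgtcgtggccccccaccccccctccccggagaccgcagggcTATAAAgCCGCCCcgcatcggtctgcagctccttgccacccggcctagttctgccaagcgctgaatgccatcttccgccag

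The 3 windows differ in these motifs. Chat holds CCAAT at positions -181 and -157 from the start, Slc18a3 holds GGGCGG at -142 and -122, and Prph holds TATAAA at -31 with GGGCGG at -24. All 9 genes matched a window. TATAAA is in 2 of them (Slc5a7 and Prph) and in 13.6% of all 32851 windows, and CCAAT is in 4 of the 9 (Chat, Isl1, Phox2a and Mnx1) and in 37.4% of all. GGGCGG is in 6 of the 9 and in 35.7% of all, and the E-box CANNTG is in 8 of the 9 and in 72.3% of all. TAATTA, a core letter string of homeodomain sites, is in 0 of the 9 and in 5.29% of all windows. CANNTG and TAATTA are not capitalized, a match on either strand counted, and a match is a string of letters and not a measured site.

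The 9 genes spanned a wide range of levels, which were compared between genes per kilobase of exon. The median over 27 libraries was 10.7 CPM per kilobase for Isl1, 4.41 for Ache, 2.22 for Prph, 1.91 for Chrna3 and 0.825 for Slc5a7. It was 0.409 for Slc18a3, 0.188 for Chat, 0.137 for Phox2a and 0 for Mnx1. The vesicular transporter and the synthetic enzyme thus rested on few reads, with 805 reads of Chat and 1092 of Slc18a3 in all libraries together, against 21680 of Ache and 35879 of Isl1. When the 9 groups were ordered by mean level, neighbouring groups overlapped in all 8 neighbour pairs for every gene except Ache, for which 7 of 8 overlapped.

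**Figure D1:**
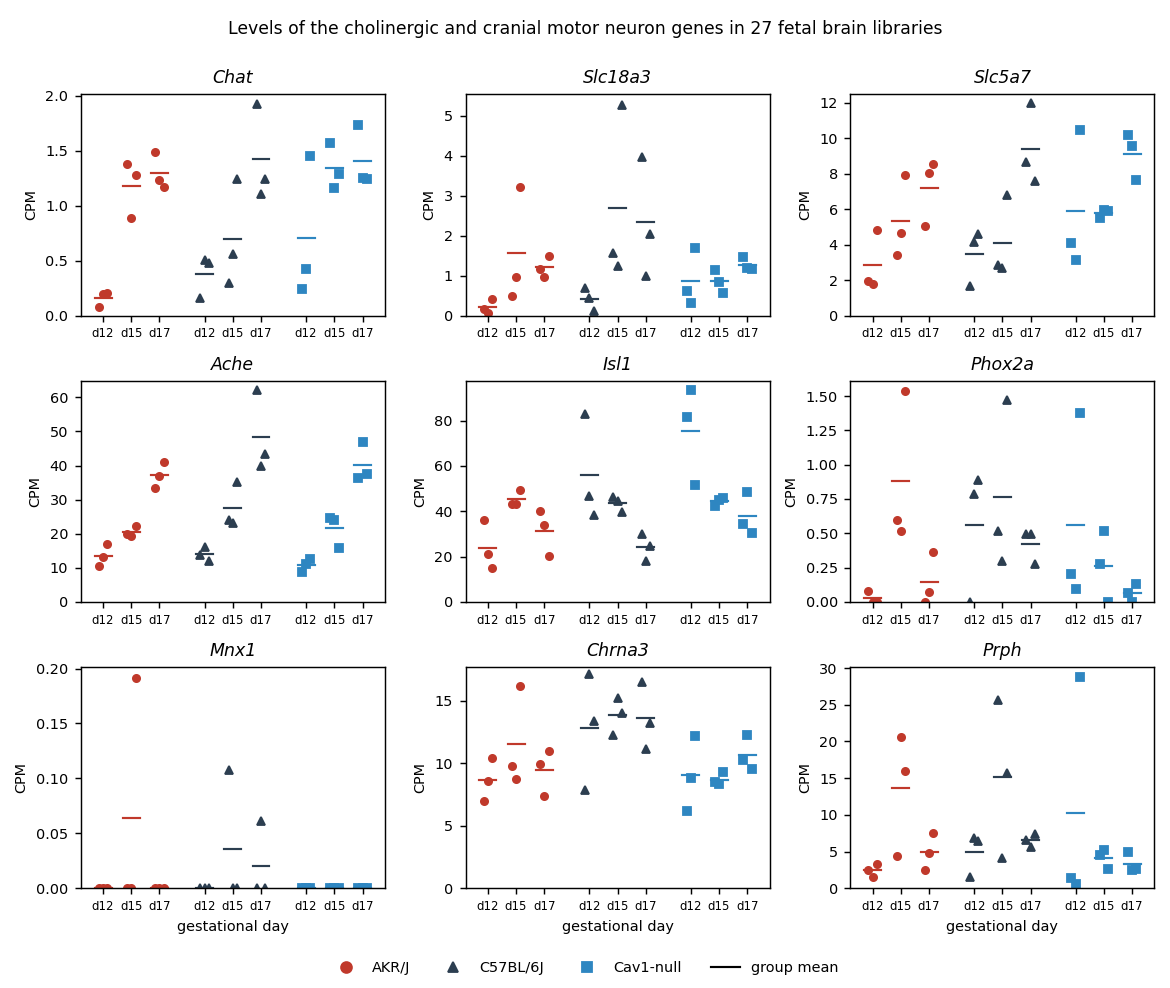
The plots of levels by strain and day show CPM on the vertical axis for each of the 9 genes, with a point per library and a line at the mean of each group of 3. Ache lies higher on d17 than on d12 in every library of all 3 strains, and Prph and Phox2a show single libraries far above the rest of their groups.

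Ache, which breaks acetylcholine down, rose from d12 to d17 in all 3 strains. In AKR/J it stood at 10.6, 13.2 and 17.1 CPM on d12, at 20.04, 19.5 and 22.2 CPM on d15 and at 33.5, 36.9 and 41.2 CPM on d17. In C57BL/6J the values were 13.7, 16.2 and 12.0 CPM on d12, 24.1, 23.02 and 35.1 CPM on d15 and 62.2, 39.7 and 43.3 CPM on d17. In Cav1-null brains they were 8.92, 11.2 and 12.5 CPM on d12, 24.8, 24.1 and 15.9 CPM on d15 and 36.3, 47.0 and 37.5 CPM on d17. The libraries of successive days did not overlap in any strain. In the late phase Ache rose by a log2 fold change of 0.87 ± 0.10 (SE) in AKR/J (adjusted p = 0.0015, edgeR quasi-likelihood test over all genes), by 0.89 ± 0.23 in C57BL/6J (adjusted p = 0.0472) and by 0.90 ± 0.15 in Cav1-null (adjusted p = 0.000632). In the early phase it rose by 0.93 ± 0.20 in C57BL/6J (adjusted p = 0.0303) and by 0.99 ± 0.20 in Cav1-null (adjusted p = 0.00933). The early log2 fold change in AKR/J was 0.55 ± 0.22 (adjusted p = 0.0942) and missed the threshold of 0.05. Over the whole span from d12 to d17, a comparison added after the data were seen, Ache rose 2.74-fold in AKR/J (adjusted p = 0.000784), 3.56-fold in C57BL/6J (adjusted p = 0.00174) and 3.65-fold in Cav1-null (adjusted p = 7.7e-05). Leaving out any 1 library left this change called in each strain, with log2 fold changes of 1.30 to 1.65, 1.58 to 1.98 and 1.77 to 1.996 in AKR/J, C57BL/6J and Cav1-null. The calls of single phases held less well: in C57BL/6J the early call was lost without any 1 of 4 libraries (d12 replicate 1 and the 3 of d15) and the late call without any 1 of 4 (the 3 of d15 and d17 replicate 3), with adjusted p up to 0.127 and 0.167. In Cav1-null the early call was lost without d15 replicate 1 or 2 (adjusted p = 0.051 and 0.0507).

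Chat, the enzyme that makes acetylcholine, had its lowest group mean in AKR/J on d12. Its level in AKR/J was 0.0824, 0.197 and 0.203 CPM on d12, 1.38, 0.886 and 1.28 CPM on d15 and 1.49, 1.23 and 1.17 CPM on d17. The d12 values rest on 2, 6 and 4 reads, and every later library lay above all of them. All 3 were under the minimum of the filter on low counts (0.338 CPM by library size for d12 to d15), so that Chat entered both AKR/J tests against d12 through the later day alone, the group where it is high. In the early phase Chat rose in AKR/J by 2.80 ± 0.57 on the log2 scale (adjusted p = 0.00914, edgeR), and from d12 to d17 by 2.98 ± 0.53 (adjusted p = 0.00249). There were 113 reads in the d15 libraries against 12 in those of d12, and the ratio of these reads per scaled library was 7.31 with an exact 95% interval of 4.02 to 14.6 that covers counting error only. The early call was lost without d15 replicate 1 (adjusted p = 0.0563) or d15 replicate 3 (adjusted p = 0.0512). In C57BL/6J the level was 0.158, 0.504 and 0.476 CPM on d12, 0.297, 0.561 and 1.24 CPM on d15 and 1.92, 1.11 and 1.24 CPM on d17. There the d15 libraries overlapped both other days, neither phase passed the test, and the change from d12 to d17 did (1.93 ± 0.51 on the log2 scale, adjusted p = 0.0275), though it was lost without d12 replicate 1 or 3 or d17 replicate 1 or 3 (adjusted p up to 0.0803). In Cav1-null brains Chat stood at 0.241, 0.428 and 1.46 CPM on d12, at 1.57, 1.16 and 1.29 CPM on d15 and at 1.74, 1.25 and 1.24 CPM on d17. The third d12 library lay within the range of the later days, and the log2 fold change from d12 to d17 was 0.93 ± 0.60 (adjusted p = 0.242).

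Slc18a3, which fills synaptic vesicles with acetylcholine, was also low on d12 and varied more between replicates. In AKR/J it stood at 0.165, 0.0658 and 0.406 CPM on d12, at 0.503, 0.978 and 3.23 CPM on d15 and at 1.17, 0.976 and 1.5 CPM on d17. On d12 only replicate 3 exceeded 0.338 CPM on the TMM scale, and none did by library size, so that Slc18a3 too entered these tests through the later day alone. It rose in the early phase by 2.88 ± 0.90 on the log2 scale (adjusted p = 0.0437, edgeR) and from d12 to d17 by 2.58 ± 0.65 (adjusted p = 0.0126). The highest d15 value was that of replicate 3, a library high in Hox markers, and without it the early change was 1.80 with an adjusted p of 0.223. The early call was also lost without d12 replicate 1 or 2 or d15 replicate 2 (adjusted p = 0.118, 0.0955 and 0.0593), and the call from d12 to d17 without d17 replicate 1 or 3 (adjusted p = 0.0506 and 0.0641). In C57BL/6J the level was 0.694, 0.442 and 0.127 CPM on d12, 1.57, 1.24 and 5.28 CPM on d15 and 3.98, 0.987 and 2.04 CPM on d17. Every later library lay above the d12 libraries, and the change from d12 to d17 was 2.4998 ± 0.69 (adjusted p = 0.033), while that of the early phase was 2.62 ± 0.75 (adjusted p = 0.0553). The call was lost without d12 replicate 2 or 3 or d17 replicate 1 or 3, with adjusted p up to 0.0886. In Cav1-null brains the values were 0.62, 0.306 and 1.69 CPM on d12, 1.15, 0.839 and 0.576 CPM on d15 and 1.47, 1.19 and 1.18 CPM on d17. There d12 overlapped both later days, every d17 library lay above those of d15, and no change was called with all libraries.

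Slc5a7, the choline transporter of cholinergic terminals, had its highest group mean in C57BL/6J on d17. In AKR/J it stood at 1.94, 1.78 and 4.83 CPM on d12, at 3.42, 4.67 and 7.9 CPM on d15 and at 5.06, 8.03 and 8.55 CPM on d17. In C57BL/6J it stood at 1.67, 4.13 and 4.6 CPM on d12, at 2.84, 2.66 and 6.81 CPM on d15 and at 8.68, 12.0 and 7.56 CPM on d17. From d12 to d17 it rose by 1.36 ± 0.43 on the log2 scale in AKR/J (adjusted p = 0.0315, edgeR) and by 1.46 ± 0.39 in C57BL/6J (adjusted p = 0.0282), and all d17 libraries lay above those of d12 in both strains. The AKR/J call was lost without d12 replicate 1 or 2 or d17 replicate 2 or 3 (adjusted p up to 0.107), and the C57BL/6J call without d17 replicate 2 or 3 (adjusted p = 0.0737 and 0.069). In Cav1-null brains the values were 4.07, 3.15 and 10.4 CPM on d12, 5.47, 5.94 and 5.9 CPM on d15 and 10.2, 9.56 and 7.63 CPM on d17. The late phase rise of 0.66 ± 0.15 in this strain passed the test (adjusted p = 0.00481) but not in 1 model of all 27 libraries (adjusted p = 0.501), and the first 2 d12 libraries lay below all later ones.

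**Figure D2:**
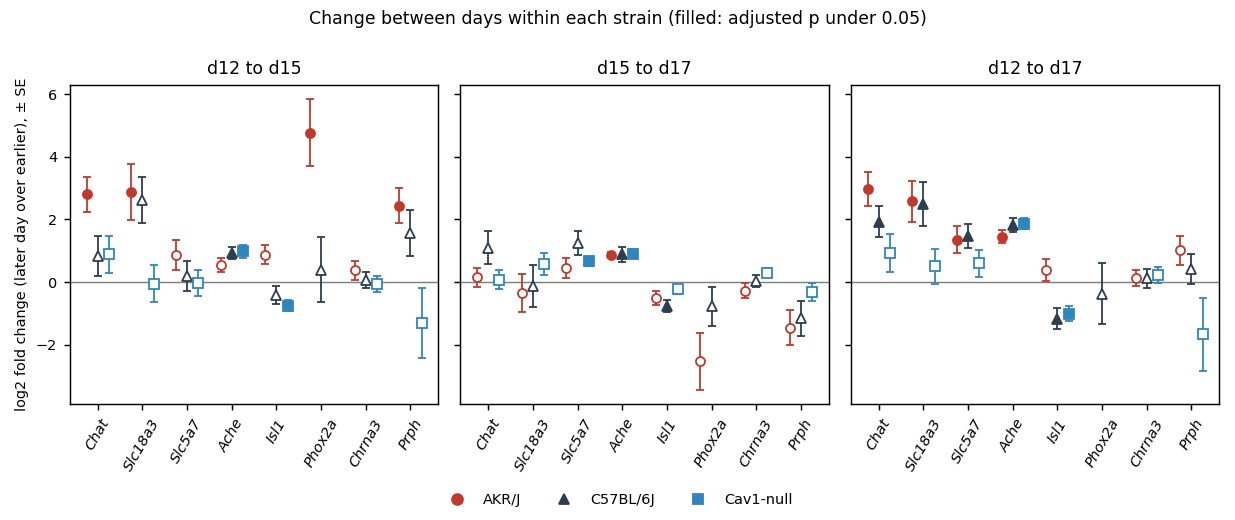
The plot of changes between days gives the log2 fold change of 8 genes, later day over earlier day, with its standard error for each strain, and filled symbols passed an adjusted p of 0.05. Ache is filled in both phases of C57BL/6J and Cav1-null, and for AKR/J in the late one. Mnx1 could not be tested and Phox2a could be tested in some comparisons only.

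Counted over the 9 genes, 4 of the 8 that could be tested were called in the early phase of AKR/J, where 28.9% of all tested genes were called, and 1 of 8 in the late phase, against 22.1% of all genes. Of the 4 early calls, 3 (Chat, Slc18a3 and Phox2a) passed the filter through d15 alone and had to be higher there, so that this count supports nothing about the set. In C57BL/6J 1 of 8 was called in the early phase (14.9% of all genes) and 2 of 8 in the late phase (13% of all genes). In Cav1-null brains 2 of 7 were called in the early phase (23.4% of all genes) and 2 of 7 in the late phase (27.3% of all genes). From d12 to d17, 4 of 7 were called in AKR/J (45.8% of all genes), 5 of 8 in C57BL/6J (26.2% of all genes) and 2 of 7 in Cav1-null (44% of all genes). The median log2 fold change of the genes tested from d12 to d17 was 1.36, 0.94 and 0.50 in the 3 strains, and that of all genes was -0.01, -0.02 and -0.04. The AKR/J count and median include Chat and Slc18a3, which passed the filter through d17 alone. Hox markers of the hindbrain and cord summed to 0.3153 to 1.81 CPM on d12 and 8.778 to 46.34 CPM on d17 in C57BL/6J. In AKR/J they summed to 1.524 to 32.55 and 18.12 to 97.1 CPM, and in Cav1-null to 0.1835 to 48.2 and 2.703 to 42.65 CPM. Their part in these counts was not tested. In AKR/J the early count fell from 4 to 0 without d15 replicate 3 alone and without both d15 libraries that stand apart, when 1.9% of all genes were called. In C57BL/6J no gene of the set was called in either phase without d15 replicates 1 and 3, when 0 and 4 of all genes were called. These AKR/J and C57BL/6J fits without a pair of d15 libraries keep 1 d15 library, assumed to vary like the other group, so that a lost call there says little about the gene. The Cav1-null counts depend on d12 replicate 3, a library high in muscle markers that also differed in levels of the nerve axis. Its Hox markers summed to 48.2 CPM, against 1.033 and 0.1835 CPM in replicates 1 and 2 of its group. Its 10 anterior brain markers summed to 259.9 CPM, against 967.5 and 802.3 CPM there, and AKR/J d12 replicate 3 was lower still at 175.4 CPM. The part of these in the counts was not tested. Without Cav1-null d12 replicate 3, 5 of 7 genes were called in the early phase (Chat, Slc5a7, Ache, Isl1 and Prph) and 7 of 7 from d12 to d17 (Chat, Slc18a3, Slc5a7, Ache, Isl1, Chrna3 and Prph). In these fits 35.9% and 50.8% of all genes were called, also more than with it.

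Isl1 had the highest median per kilobase of the set and was the only gene of it called lower on a later day. In C57BL/6J it stood at 82.8, 46.7 and 38.4 CPM on d12, at 46.5, 44.4 and 39.6 CPM on d15 and at 30.1, 18.2 and 24.8 CPM on d17. In Cav1-null brains the level was 81.4, 93.7 and 51.6 CPM on d12, 42.5, 45.0 and 46.0 CPM on d15 and 34.6, 48.5 and 30.3 CPM on d17. All d17 libraries lay below all d12 libraries in both strains. Isl1 fell from d12 to d17 by 1.17 ± 0.33 on the log2 scale in C57BL/6J (adjusted p = 0.035, edgeR) and by 1.01 ± 0.23 in Cav1-null (adjusted p = 0.0073). The fall was called in the late phase of C57BL/6J (-0.77 ± 0.20, adjusted p = 0.0453) and in the early phase of Cav1-null (-0.76 ± 0.18, adjusted p = 0.0179). From d12 to d17 the Cav1-null call held without any 1 library, and the C57BL/6J call was lost without the first d12 library or replicate 2 or 3 of d17 (adjusted p = 0.0923, 0.0896 and 0.112). The late call of C57BL/6J was lost without any 1 of 4 libraries (adjusted p up to 0.153), and the early call of Cav1-null without any 1 library except d12 replicate 3 (adjusted p up to 0.0817). Neither of these calls of single phases held in 1 model of all 27 libraries (adjusted p = 0.0551 and 0.1). In AKR/J the values were 36.1, 21.0 and 14.8 CPM on d12, 43.3, 43.3 and 49.4 CPM on d15 and 40.1, 34.2 and 20.2 CPM on d17. Here the d12 libraries lay below those of d15, and the early log2 fold change of 0.87 ± 0.30 had an adjusted p of 0.0609. On d15 the 9 libraries of the 3 strains lay close together, between 39.6 and 49.4 CPM.

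Phox2a and Mnx1 were at the edge of detection. Phox2a stood at 0.0824, 0 and 0 CPM in AKR/J on d12, at 0.597, 0.519 and 1.53 CPM on d15 and at 0, 0.0723 and 0.367 CPM on d17. Its early log2 fold change of 4.77 ± 1.07 passed the test (adjusted p = 0.0132, edgeR), on 2 reads in the d12 libraries and 84 in those of d15. It entered this test through d15 alone, the group where it is high. Without d15 replicate 3 its adjusted p was 0.0684. The ratio of these reads per scaled library was 32.6, with an exact 95% interval of 8.75 to 274 for counting error. In C57BL/6J Phox2a stood at 0, 0.788 and 0.889 CPM on d12, at 0.513, 0.295 and 1.47 CPM on d15 and at 0.497, 0.493 and 0.279 CPM on d17. In Cav1-null brains it stood at 0.207, 0.0918 and 1.38 CPM on d12, at 0.279, 0.516 and 0 CPM on d15 and at 0.0669, 0 and 0.127 CPM on d17. The 3 libraries with the highest Phox2a, AKR/J d15 replicate 3, C57BL/6J d15 replicate 3 and Cav1-null d12 replicate 3, are among the 5 that stand apart in muscle or Hox markers. Mnx1 had 12 reads in all, 6 in AKR/J d15 replicate 3, 4 in C57BL/6J d15 replicate 1 and 2 in C57BL/6J d17 replicate 2. A count of 0 in the other 24 libraries allows a level of up to 3 reads per library, or 0.0793 to 0.152 CPM over the 27 libraries, so that Mnx1 was not detectable at this depth there.

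No change of Chrna3 between days was called with all libraries. Its level in AKR/J was 7.0, 8.55 and 10.5 CPM on d12, 9.77, 8.77 and 16.2 CPM on d15 and 9.98, 7.38 and 10.99 CPM on d17. In C57BL/6J the values were 7.89, 17.1 and 13.4 CPM on d12, 12.3, 15.2 and 14.0 CPM on d15 and 16.5, 11.1 and 13.2 CPM on d17, and in Cav1-null brains 6.17, 8.84 and 12.2 CPM, 8.47, 8.33 and 9.29 CPM and 10.3, 12.3 and 9.57 CPM. The days overlapped in every strain except between d15 and d17 of Cav1-null, where all d17 libraries were higher (0.30 ± 0.13 on the log2 scale, adjusted p = 0.113). The log2 fold changes over the 6 phases ran from -0.27 to 0.37. The other subunit genes of its cluster were lower in CPM. Chrna5 had group means of 2.5 to 3.89 CPM and Chrnb4 of 0.767 to 2.28 CPM, and neither was called between days in any strain with all libraries. Without Cav1-null d12 replicate 3, Chrna3 was called higher in that strain from d12 to d17 (0.51 on the log2 scale, adjusted p = 0.0348), and Chrna5 was called higher in the early phase (0.94 on the log2 scale, adjusted p = 0.0353) and from d12 to d17 (1.13, adjusted p = 0.0044).

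Prph varied widely between replicates of some groups. In AKR/J it stood at 2.51, 1.58 and 3.3 CPM on d12, at 4.43, 20.6 and 16.0 CPM on d15 and at 2.46, 4.84 and 7.55 CPM on d17. In C57BL/6J it stood at 1.58, 6.91 and 6.51 CPM on d12, at 25.6, 4.07 and 15.7 CPM on d15 and at 6.62, 5.61 and 7.38 CPM on d17. In Cav1-null brains it stood at 1.34, 0.642 and 28.7 CPM on d12, at 4.57, 5.26 and 2.68 CPM on d15 and at 4.88, 2.51 and 2.64 CPM on d17. The 5 libraries above 15 CPM are the 5 that stand apart in muscle or Hox markers, and the other 22 libraries lay between 0.642 and 7.55 CPM. The cuts that set these 5 apart, a muscle sum above 30 or a Hox sum above 150 CPM, were chosen after the data were seen. The match depends on them and is a description only. In the early phase Prph rose in AKR/J by 2.43 ± 0.56 on the log2 scale (adjusted p = 0.0144, edgeR). Without d15 replicate 3 its adjusted p was 0.0554. Without d15 replicates 2 and 3, with 1 d15 library left, the change was 0.85 with an adjusted p of 0.52. The 11 sensory ganglion markers found in the table, of 12 listed, summed to 127.0 and 156.0 CPM in AKR/J d15 replicates 2 and 3, 253.5 and 286.6 CPM in C57BL/6J d15 replicates 1 and 3 and 140.1 CPM in Cav1-null d12 replicate 3. These sums lay above the 98.89, 252.8 and at most 93.6 CPM of the remaining libraries of their groups, but within the 51.39 to 349.8 CPM of the other 22 libraries, and the highest was C57BL/6J d17 replicate 1. The part of sensory ganglia, muscle or cord in the Prph values was not tested.

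**Figure D3:**
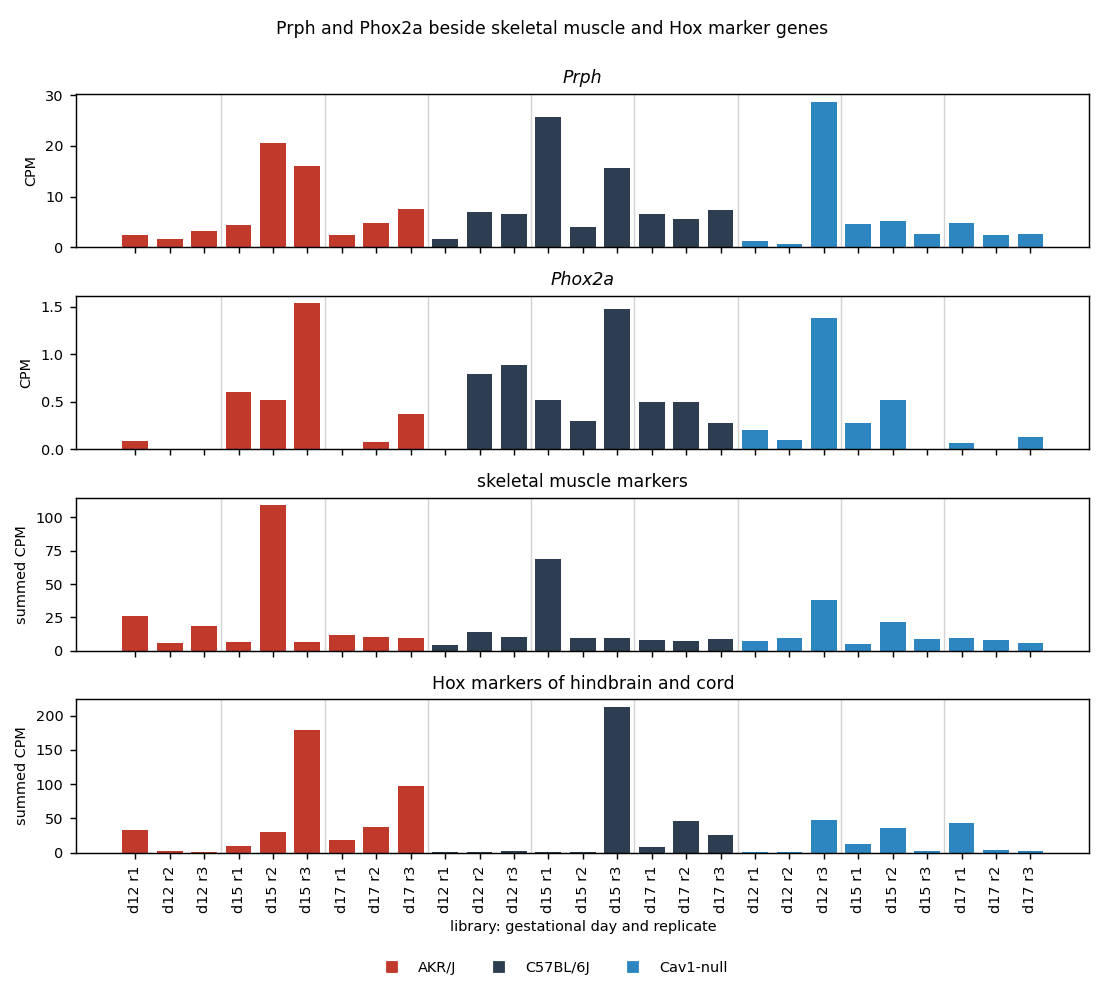
The bars by library give the CPM of Prph and Phox2a and the summed CPM of 12 skeletal muscle and 17 Hox marker genes, in the order of strain, day and replicate. Prph is highest in the 5 libraries with a muscle sum above 30 or a Hox sum above 150 CPM, cuts chosen after the data were seen. Phox2a is highest in 3 of them.

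The reads of the nested pair Slc18a3 and Chat did not keep a fixed ratio. Slc18a3 reads per Chat read ranged from 0.267 to 5.27 with a median of 0.949, and exceeded 1 in 13 of 27 libraries. In C57BL/6J on d15 the ratio was 5.27, 2.21 and 4.26, above 1 in all 3 libraries. In Cav1-null on the same day it was 0.733, 0.722 and 0.447, and on d17 it was 0.846, 0.946 and 0.949, below 1 in all 6. The d12 ratios rest on as few as 2 reads of either gene. Reads from unspliced Chat RNA over the Slc18a3 exon cannot be told apart from Slc18a3 reads in this table, and the junction table lists no junction of either gene.

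**Figure D4:**
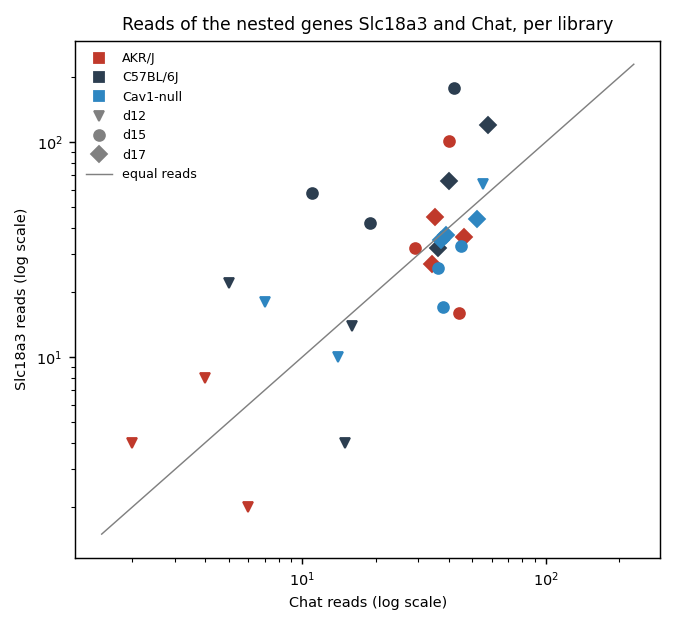
The scatter of reads per library sets Slc18a3 against Chat on log scales, with colour for strain, shape for day and a line at equal reads. The 3 C57BL/6J d15 libraries lie above the line, at 58, 42 and 179 Slc18a3 reads against 11, 19 and 42 Chat reads, and the Cav1-null d15 and d17 libraries lie below it.

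AKR/J and Cav1-null were each compared with C57BL/6J on the same day, and not with each other. In the main fit, differences of these genes were called on d15 only and between Cav1-null and C57BL/6J only. On that day 3 of 8 genes were called, all lower in Cav1-null, where 58.6% of all tested genes were called in either direction and 31.8% lower. Slc18a3 had a log2 difference of -1.61 ± 0.53 (adjusted p = 0.025, edgeR). Chrna3 had a difference of -0.63 ± 0.12 (adjusted p = 0.00152), and the Cav1-null libraries all lay below those of C57BL/6J. Prph had a difference of -1.83 ± 0.53 (adjusted p = 0.013). Prph lost its call without Cav1-null d15 replicate 3 (adjusted p = 0.0581), and Slc18a3 without that library, Cav1-null d15 replicate 2 or C57BL/6J d15 replicate 3 (adjusted p = 0.0932, 0.0666 and 0.157). Without the C57BL/6J d15 libraries that stand apart, replicates 1 and 3, the Prph difference turned to 0.06 (adjusted p = 0.904) and that of Slc18a3 was -0.51 (adjusted p = 0.474), with 1 C57BL/6J library left. Chrna3 remained called, at -0.78 (adjusted p = 0.00215), and was called in all 6 fits that left out 1 library. A single model of all 27 libraries called 0 of the 8 genes. Between AKR/J and C57BL/6J, 0 of 5 genes were called on d12 (28.6% of all genes), 0 of 8 on d15 (41.1%) and 0 of 8 on d17 (0.742%). Isl1 on d12, at -1.09 ± 0.39, was nearest on that day (adjusted p = 0.0654), and 1, 0 and 1 of the genes had an unadjusted p under 0.05 on the 3 days. Between Cav1-null and C57BL/6J, 0 of 8 were called on d12 (0% of all genes) and 0 of 7 on d17 (0.0491%), with 0 and 2 at an unadjusted p under 0.05.

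Whether the change over a phase differed between strains was tested by an interaction term over 12 libraries. None of the 8 genes tested passed in any of the 4 interactions, for which 0.0711%, 0.00468%, 0.00472% and 0.252% of all genes were called, and 2, 0, 1 and 0 of 8 genes had an unadjusted p under 0.05 (early and late phase of AKR/J, then of Cav1-null, against C57BL/6J). The calls listed above by strain therefore do not show a difference between strains in the change with day.

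Most muscarinic receptor genes, whose products answer acetylcholine through G proteins, were called higher on d17 than on d12. Of 5, 3 rose in AKR/J (45.8% of all genes were called in either direction), 4 in C57BL/6J (26.2%) and 4 in Cav1-null (44%), and 0 fell. Chrm4 was not called in any strain, at 1.42, 1.35 and 0.36 on the log2 scale, and Chrm5 was not called in AKR/J (adjusted p = 0.0654). Some entered these tests through d17 alone, the group where they are high: Chrm1 and Chrm5 in AKR/J and Chrm5 in C57BL/6J and Cav1-null, so that these counts are a description only. In the late phase 2 of 5 were called in AKR/J (22.1% of all genes), 0 of 5 in C57BL/6J (13%) and 4 of 5 in Cav1-null (27.3%), each higher on d17. From d12 to d17 without Cav1-null d12 replicate 3, the count in that strain was again 4, when 50.8% of all genes were called. Pan-neuronal markers were higher on d17 than on d12 as well, with sums of 7483 to 7605 against 2329 to 2927 CPM in AKR/J, 6849 to 9875 against 4322 to 7571 CPM in C57BL/6J and 7593 to 7978 against 5480 to 6996 CPM in Cav1-null. Their part in the receptor values was not tested. The median log2 fold change of the 5 receptor genes was 3.59, 2.71 and 2.29, and that of all genes was -0.01, -0.02 and -0.04. These medians include the receptor genes that entered through d17 alone and are a description only. Chrm1, the receptor of cortical and hippocampal principal neurons, rose in AKR/J from 0.193 ± 0.19 to 5.84 ± 0.713 CPM (SD, n = 3), by 4.90 ± 0.58 on the log2 scale (adjusted p = 0.00034, edgeR). In C57BL/6J Chrm1 rose from 1.83 ± 1.01 to 11.6 ± 5.24 CPM (adjusted p = 0.0082), and in Cav1-null from 1.22 ± 0.358 to 10.6 ± 0.452 CPM (adjusted p = 4.88e-05). Chrm2, an inhibitory receptor that also acts at cholinergic terminals, rose from 0.994 ± 0.433 to 13.7 ± 1.53 CPM in AKR/J (adjusted p = 0.000117), from 2.44 ± 1.15 to 15.9 ± 1.47 CPM in C57BL/6J (adjusted p = 0.00243) and from 3.64 ± 0.767 to 18.1 ± 0.663 CPM in Cav1-null (adjusted p = 6.08e-05). The libraries of d12 and d17 did not overlap for either gene.

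Nicotinic receptor genes did not move as a group. Of 15 listed, 9, 10 and 9 could be tested from d12 to d17 in AKR/J, C57BL/6J and Cav1-null. In AKR/J 4 rose and 1 fell, in C57BL/6J 3 rose, and in Cav1-null 3 rose and 1 fell, with median log2 fold changes of 0.33, 0.76 and 0.23. These counts lie near the shares of all genes called, which were 45.8%, 26.2% and 44%. Without Cav1-null d12 replicate 3, 5 of 10 rose and 2 fell in that strain, when 50.8% of all genes were called. Of the calls with all libraries, Chrna6 and Chrnb3 in AKR/J and Chrnb3 and Chrne in C57BL/6J entered the test through d17 alone and had to be higher there, so that the AKR/J and C57BL/6J counts are a description only. Chrna7, the subunit of the homomeric receptor, was called higher in all 3 strains, being named for AKR/J after its values were seen. Chrna7 rose from 5.47 ± 1.88 to 14.1 ± 0.459 CPM in AKR/J (adjusted p = 0.00476, edgeR), from 8.05 ± 0.584 to 14.5 ± 0.685 CPM in C57BL/6J (adjusted p = 0.0138) and from 9.57 ± 1.73 to 15.8 ± 1.16 CPM in Cav1-null (adjusted p = 0.0086; SD, n = 3). Chrnb3, a subunit of midbrain dopamine neurons, rose in Cav1-null by 2.72 ± 0.57 on the log2 scale (adjusted p = 0.00505). Chrna4, a subunit of the main nicotinic receptor of the brain, had a log2 fold change of -0.76 ± 0.25 in AKR/J (adjusted p = 0.0367), and its partner Chrnb2 one of 1.09 ± 0.21 in AKR/J (adjusted p = 0.00396) and of -0.35 ± 0.09 in Cav1-null (adjusted p = 0.0127). On d15 Chrna4 stood between 11.6 and 14.5 CPM in the Cav1-null libraries and between 52.7 and 59.9 CPM in those of C57BL/6J, a log2 difference of -2.05 ± 0.10 (adjusted p = 6.46e-08). Chrnb4 was lower there as well, with a log2 difference of -1.52 ± 0.42 (adjusted p = 0.0099). Without C57BL/6J d15 replicates 1 and 3 both remained called, at -2.02 (adjusted p = 1.47e-07) and -2.0016 (adjusted p = 0.00618).

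**Figure D5:**
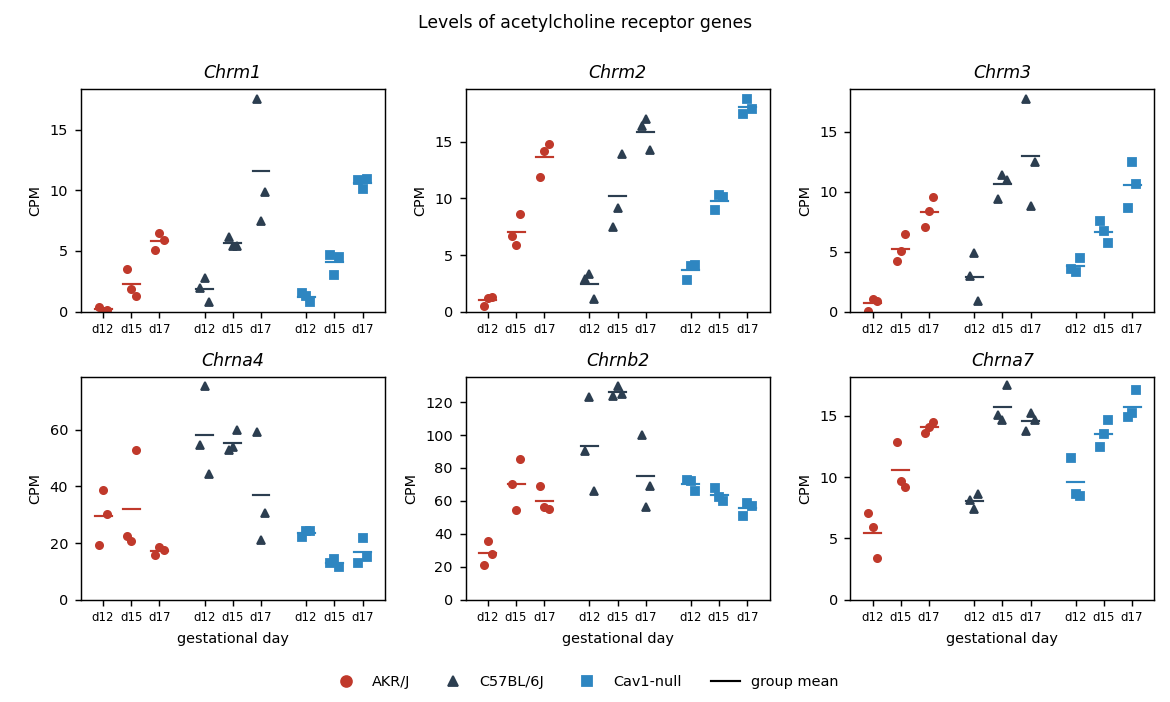
The plots of receptor levels show CPM by strain and day for 3 muscarinic and 3 nicotinic receptor genes, with a point per library and a line at the group mean. Chrm1, Chrm2 and Chrm3 have their lowest group means on d12 and their highest on d17 in each strain, and Chrna4 and Chrnb2 have their highest group means in C57BL/6J on d12 and d15.

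Other genes of choline and motor neuron biology were described by lists. Of 12 genes of choline handling and acetylcholine breakdown, 11 were tested from d12 to d17. In AKR/J 1 rose (Pcyt1a, 0.79 ± 0.17 on the log2 scale, adjusted p = 0.00617, edgeR) and 2 fell, Bche, the second cholinesterase, with a log2 fold change of -1.08 ± 0.24 (adjusted p = 0.00638) and Chpt1, an enzyme of phosphatidylcholine synthesis, with one of -1.10 ± 0.25 (adjusted p = 0.00827). In C57BL/6J 0 were called, and in Cav1-null choline kinase Chka rose and Acly fell. Of 15 regulators of motor neuron identity, 1 rose and 4 fell in AKR/J, 0 rose and 4 fell in C57BL/6J, and 1 rose and 4 fell in Cav1-null. Nkx6-2, a progenitor factor of the ventral hindbrain and cord, fell in AKR/J, C57BL/6J and Cav1-null, with log2 fold changes of -2.34 ± 0.48, -2.19 ± 0.52 and -1.61 ± 0.43 (adjusted p = 0.00462, 0.0187 and 0.0155), and the nuclear receptor Esrrg rose by 2.22 ± 0.25 in AKR/J (adjusted p = 0.000253). Of 14 motor neuron effector genes, 5 rose and 3 fell in AKR/J, 5 rose and 2 fell in C57BL/6J, and 2 rose and 2 fell in Cav1-null. In AKR/J the neurotrophic receptor gene Ret rose by 2.90 ± 0.43 (adjusted p = 0.00104) and Chodl, a marker of fast motor neurons, by 2.65 ± 0.64 (adjusted p = 0.00998). In C57BL/6J and Cav1-null the neurofilament gene Nefh rose by 2.17 ± 0.38 and 1.91 ± 0.21 (adjusted p = 0.0062 and 0.000206) and the transcription factor Etv4 by 1.86 ± 0.24 and 2.05 ± 0.31 (adjusted p = 0.00184 and 0.00103). Of all genes 45.8%, 26.2% and 44% were called in these 3 comparisons. Without Cav1-null d12 replicate 3, when 50.8% of all genes were called in that strain, 3 genes of choline handling rose and 1 fell, 2 regulators rose and 3 fell, and 7 effectors rose and 2 fell.

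On d15 many genes of the motor neuron lists were lower in Cav1-null than in C57BL/6J, in a comparison that called 58.6% of all genes in either direction and 31.8% of all genes lower. Among the regulators 11 of 14 tested were lower and 0 higher, with a median log2 difference of -1.20, and among the effectors 8 of 13 were lower and 0 higher, with a median of -1.02. The median over all genes was 0.03. Without C57BL/6J d15 replicates 1 and 3, which stand apart in muscle and Hox markers, 4 of 14 regulators and 8 of 13 effectors were lower and 0 higher, with medians of -0.68 and -1.02 against 0.09 over all genes, of which 24.3% were called lower. Isl2, the sister gene of Isl1, differed by -2.19 ± 0.63 (adjusted p = 0.0125, edgeR), Nkx6-1 by -1.97 ± 0.48 (adjusted p = 0.00544) and Mmp9, a protease of fast motor neurons, by -3.28 ± 0.14 (adjusted p = 4.05e-08). Without these 2 libraries Isl2 (-1.64, adjusted p = 0.13) and Nkx6-1 (-1.13, adjusted p = 0.0754) lost their calls and Mmp9 kept it (-3.15, adjusted p = 5.31e-08). Isl1 itself differed by 0.07 ± 0.08 (adjusted p = 0.432). Lists of other cells were lower on that day too. In Cav1-null 7 of 9 tested genes of sensory ganglia and 7 of 9 of the forebrain cholinergic lineage were lower and 0 higher, and of 12 pan-neuronal genes 8 were lower and 3 higher. Without the same 2 libraries 3 of 9, 5 of 9 and 8 of 12 were lower. The C57BL/6J d15 libraries summed to 8514 to 9635 CPM of pan-neuronal markers and the Cav1-null d15 libraries to 7121 to 7158 CPM. Their part in the result was not tested. With library sizes in place of TMM scaling the log2 differences of that day shifted by 0.22, Slc18a3, Chrna3 and Prph remained called lower, and Chat (1.17, adjusted p = 0.0476) and Isl1 (0.26, adjusted p = 0.0161) were called higher in Cav1-null. On that scaling 8 regulators and 8 effectors were lower and 0 and 1 higher, against 25% of all genes lower.

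The genes whose levels ran most like those of single members were found by Pearson's r of log2(CPM + 1) over the 27 libraries, among 16446 genes with a mean of at least 1 CPM. For Chat they were C1ql3 (r = 0.865), Zmat4 (0.863), Gm6145 (0.86), Gm10605 (0.86) and Cdh18 (0.859), and for Isl1 Gm14204 (0.874), Slc18a2 (0.868), Magel2 (0.858), Gad2 (0.854) and Dock11 (0.845). For Chrna3 they were Il4ra (0.859), Nefm (0.856), Spon1 (0.829), Unc5c (0.822) and Mast4 (0.82). For Prph they included Pax8 (0.824), Rin2, Ccdc3 and Unc45b, and for Mnx1, on 12 reads, r was at most 0.566 (Gm49797). These values describe libraries that share strain, day and the 5 libraries that stand apart.

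The junction table, a second readout of the same libraries, held 9 junctions of 4 of the 9 genes: Ache, Prph, Chrna3 and Isl1. A 0 in it can stand for reads the authors removed. For Isl1, 206 reads joined an exon end to an acceptor inside exon 5, over an intron on chromosome 13 from 116438246 to 116439581 (GRCm39, minus strand). This form leaves out the first 69 bases of exon 5, a multiple of 3, at chr13:116438246-116438314. No junction into the start of exon 5 is listed, so the share of this form cannot be given. The segment left out is shown here because it sets this form apart from the annotated exon, with the last bases before the downstream acceptor site in capitals.
Isl1 exon 5 segment: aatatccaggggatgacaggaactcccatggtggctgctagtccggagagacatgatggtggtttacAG
The junction had 0 reads in 2 of 27 libraries and was highest in Cav1-null d12 replicate 2, with 26 reads. From d12 to d17 the gene fell in C57BL/6J and Cav1-null. The exon 5 junction had 2.73 ± 1.87 junction CPM on d12 and 0.612 ± 0.636 on d17 in C57BL/6J. In Cav1-null it had 4.48 ± 1.19 junction CPM on d12 and 1.81 ± 0.959 on d17 (SD, n = 3), where junction CPM are CPM taken over all junction reads of a library. The Isl1 junction with the most reads (1571, over the intron from 116439869 to 116441753) had lower means on d17 as well, at 9.74 ± 4.52 against 18.1 ± 10.2 in C57BL/6J and 12.8 ± 6.42 against 24.3 ± 7.26 in Cav1-null. The remaining Isl1 junction, over the intron from 116442014 to 116444809, had 360 reads and 0 in 14 of 27 libraries. In Cav1-null its mean went the other way from the gene, at 0 on d12 and 4.03 ± 3.49 junction CPM on d17. In C57BL/6J it was 2.98 ± 5.17 on d12 and 2.61 ± 4.51 on d17.

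In Ache the first intron ends at either of a pair of acceptors 3 bases apart, at 137288270 with 67 reads and at 137288273 with 70 reads on chromosome 5. The stretch chr5:137288247-137288279 (GRCm39, plus strand) is shown because both acceptor AG letters, in capitals, lie in it.
Ache tandem acceptor: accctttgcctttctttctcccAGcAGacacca
Reads at both acceptors were too few to compare groups, with 0 at the first in 8 libraries and 0 at the second in 15. The Ache junction from 137290226 to 137291429 had 786 reads, with reads in all 27 libraries. Its group means were higher on d17 than on d12, at 9.45 ± 0.79 against 4.64 ± 1.35 junction CPM in AKR/J, 16.2 ± 5.57 against 2.8 ± 0.404 in C57BL/6J and 10.8 ± 1.69 against 2.65 ± 0.963 in Cav1-null (SD, n = 3). The Prph junctions, with 530 and 563 reads, were highest in C57BL/6J d15 replicate 1 (96 reads) and Cav1-null d12 replicate 3 (103 reads), libraries in which the gene count was highest too.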

How the data were processed

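RNA of whole fetal brains was sequenced as poly-A selected libraries. According to the submitters' processing notes the tools were FastQC, cutadapt, fastp, STAR, edgeR and bedtools, with the build GRCm39. The counting tool, strandedness and versions are not given in the sources used here. The authors deposited raw read counts per gene and counts of reads per splice junction, from which junctions with multimapped reads, short overhangs or few reads had been left out. Gene counts were used as deposited, 26363697 to 39759702 per library. Intervals and floors of 3 reads cover counting error only.

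Samples were grouped by strain and day from their titles. The members and gene lists were chosen with earlier results of these data known. Genes were filtered with filterByExpr, scaled by TMM and tested with the quasi-likelihood test of edgeR 4.0.16 (R 4.3.3) on the 6 libraries compared, or 12 for an interaction, with Benjamini-Hochberg adjustment over all genes tested and a threshold of 0.05. In all 19 comparisons were made, of which 3 (d12 to d17) were added after the data were seen. The standard error is the log2 fold change divided by the root of the F statistic. Named were all 9 genes, the 2 called genes of a list with the highest and the 2 with the lowest fold change, partners of members, the 5 genes most like a member and the junctions of members. Alternatives were size factors by the RLE method, library sizes alone, the Wald test of DESeq2 1.42.0, no filter, 1 model of 27 libraries, a replicate block, and leaving out each library. Added after the data were seen was a fit without the 5 libraries with a muscle sum above 30 or a Hox sum above 150 CPM, for the lists too. Likeness and junction summaries were computed in Python 3.11.15. The fit was tested on simulated counts. Positions come from GENCODE on GRCm39 and promoter windows from RefSeq on GRCm38.p6. Some results on single genes are not reported here.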

Additional observations from a re-analysis of the deposited data

Results flagged for a closer look

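The libraries of Isl1 lay in opposite order over the early phase in AKR/J and Cav1-null. All 3 AKR/J d15 libraries lay above all 3 of d12, with a log2 fold change of 0.87 (adjusted p = 0.0609, edgeR), and all 3 Cav1-null d15 libraries lay below those of d12, with -0.76 (adjusted p = 0.0179). The AKR/J change missed the threshold, and the Cav1-null call held in 1 of 6 fits that left out 1 library. The difference between AKR/J and Cav1-null was not tested. The AKR/J d12 libraries were those with the lowest pan-neuronal and the highest erythroid marker sums, and the part of these in the Isl1 values was not tested.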

How the results depend on the processing

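Of the 9 genes, the number called changed as follows. Between AKR/J and C57BL/6J on d12 it was 0, but 1 with library sizes alone, with DESeq2 and with the replicate block (Isl1), and 2 without the filter and in 1 model of all 27 libraries (Isl1 and Phox2a). On d15 library sizes alone gave 1 in place of 0. In the late phase of AKR/J it was 1, but 2 with DESeq2 and 3 without the filter and with the replicate block. In the early phase of C57BL/6J it was 1, but 2 with DESeq2, without the filter and in the 27-library model, and 0 with the replicate block. From d12 to d17 in C57BL/6J the replicate block gave 3 in place of 5. The 27-library model gave 1 in the late phase of C57BL/6J and in both phases of Cav1-null, in place of 2, and 0 between Cav1-null and C57BL/6J on d15 in place of 3, where library sizes alone gave 5. Without the 5 libraries the counts were 0 for AKR/J early and for C57BL/6J early and late, 5 in the early phase of Cav1-null and 7 from d12 to d17, and the Prph difference between Cav1-null and C57BL/6J on d15 turned to 0.06101 on the log2 scale. The AKR/J early fit, both C57BL/6J fits and this last comparison keep 1 d15 library of the strain reduced, assumed to vary like the others, and AKR/J against C57BL/6J on d15 then gave no value, with 1 library on each side. The cause was not tested.

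Leaving out 1 library at a time, the number of all genes called also moved, and is given in brackets after that of the 9 genes. AKR/J had 0 to 4 called early (2619 to 9052), 1 to 2 late (1576 to 4802) and 2 to 4 from d12 to d17 (6362 to 12115). C57BL/6J had 0 to 1 (0 to 5958), 0 to 2 (160 to 6990) and 1 to 4 (2214 to 5231). Cav1-null had 0 to 5 (2301 to 7378), 2 to 3 (3974 to 5331) and 2 to 7 (6335 to 10617). AKR/J against C57BL/6J had 0 to 1 on d12 (25 to 8009), 0 to 1 on d15 (5749 to 7828) and 0 to 2 on d17 (54 to 5478). Cav1-null against C57BL/6J had 0 on d12 (0 to 1500), 1 to 4 on d15 (10418 to 10947) and 0 to 2 on d17 (2 to 2865). The late interaction of Cav1-null had 0 to 1 (0 to 5792). Replicate numbers did not pair the samples, since only 2 of 36 pairs of groups had every same-number correlation above 0.1 (range -0.578 to 0.473). Of 26 log2 fold changes of called genes, 22 kept their call with the replicate block, and all 26 did with RLE size factors, with DESeq2, with library sizes alone and without the filter. In the 27-library model 20 kept it and 6 lost it. Without the 5 libraries, of 15 that could be refitted 6 kept it, 8 lost it and 1 turned direction, and of 156 refits without 1 library 106 kept it and 50 lost it. Of the genes most like a member by library, 2 of 5 for Isl1 and 0 of 5 for Chat, Chrna3, Prph and Mnx1 were also most like it over 9 group means. Depth limits Mnx1, Phox2a, Chat and Slc18a3, which rest on few reads.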
